A study of Mus musculus with 6 samples.

Results

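The variable segments of the T cell receptor alpha chain (Trav genes) were described in bulk RNA sequencing of splenic CD4+ T cells. All rows whose gene name starts with Trav were taken, which gave 128 of the 54532 rows of the deposited count table, in 23 families numbered by the digits after Trav. The C57BL/6 mice had experimental autoimmune encephalomyelitis (EAE), a model of central nervous system autoimmunity, and were sampled in its acute phase. The 3 control mice were labelled wild type, with no Cre and no floxed allele named. The 3 mice labelled Ogt-KD were heterozygous for a floxed allele of Ogt, the enzyme that attaches O-linked N-acetylglucosamine to intracellular proteins, together with CD4-Cre (Ogtfl/wt CD4-Cre), a recombinase driven from Cd4 regulatory sequence in T cells. The controls are not described as carrying Cre, so an effect of Cre or of linked DNA cannot be told apart from one of Ogt. Neither age nor sex was given, and each library was labelled as 1 of 3 replicates of its group.

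Each alpha chain is built in the thymus by joining 1 V segment to 1 of many J segments (Traj), and the joined exon is spliced to the constant exons (Trac). The V segment encodes most of the variable domain, including the first and second complementarity-determining regions, so the mixture of V segments in a CD4+ T cell library is a coarse picture of its alpha chain repertoire. The first joins of a thymocyte tend to use V segments close to the J cluster, and later joins on the same chromosome reach farther out. In C57BL/6 mice a block of the locus is duplicated, and the letters d and n after the family number mark the copies, while names that also hold dv belong to segments shared with the delta chain.

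On the GRCm38 build, whose GENCODE M21 annotation has the same coordinates for 128 of 128 rows, the Trav rows lay on the plus strand of chromosome 14 between positions 52427928 and 53977678, a span of 1.55 Mb. The first Traj row started at position 54155005, downstream of all of them. The annotation classed 108 rows as V genes and 20 as pseudogenes, 39 names carried the letter d, 34 the letter n and 55 no letter, and 10 were also delta V names. Each gene row covers a leader exon and a V exon. The V exons below are those of the 6 most counted Trav14 segments, the family whose share differed most between the groups, in GENCODE M21 sequence written 5′ to 3′, with capitals at each base that differs from Trav14-1 in a pairwise alignment. The last 300 bases of each exon are shown, which end in the codons before the join. They lie at chr14:53554259-53554558 (Trav14-1), chr14:53640926-53641225 (Trav14-2), chr14:53763395-53763694 (Trav14-3), chr14:53078746-53079045 (Trav14d-3-dv8), chr14:53370276-53370575 (Trav14n-3) and chr14:53166879-53167178 (Trav14n-1).
Trav14-1: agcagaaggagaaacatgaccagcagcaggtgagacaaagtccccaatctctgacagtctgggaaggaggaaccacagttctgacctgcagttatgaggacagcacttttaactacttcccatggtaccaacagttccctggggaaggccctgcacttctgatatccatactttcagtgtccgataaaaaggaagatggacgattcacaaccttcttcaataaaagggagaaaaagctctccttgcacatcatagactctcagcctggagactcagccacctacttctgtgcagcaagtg
Trav14-2: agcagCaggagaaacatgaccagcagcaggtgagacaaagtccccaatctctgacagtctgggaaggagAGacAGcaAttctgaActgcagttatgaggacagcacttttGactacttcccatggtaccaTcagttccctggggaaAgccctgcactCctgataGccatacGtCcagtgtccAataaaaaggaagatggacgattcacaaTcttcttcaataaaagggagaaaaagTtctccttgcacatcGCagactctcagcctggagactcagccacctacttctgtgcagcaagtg
Trav14-3: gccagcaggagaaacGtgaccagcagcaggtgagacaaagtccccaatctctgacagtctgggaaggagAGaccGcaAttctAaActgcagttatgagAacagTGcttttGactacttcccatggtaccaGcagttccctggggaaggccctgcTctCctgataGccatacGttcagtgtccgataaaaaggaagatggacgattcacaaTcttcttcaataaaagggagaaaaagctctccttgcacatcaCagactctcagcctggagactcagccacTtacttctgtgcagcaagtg
Trav14d-3-dv8: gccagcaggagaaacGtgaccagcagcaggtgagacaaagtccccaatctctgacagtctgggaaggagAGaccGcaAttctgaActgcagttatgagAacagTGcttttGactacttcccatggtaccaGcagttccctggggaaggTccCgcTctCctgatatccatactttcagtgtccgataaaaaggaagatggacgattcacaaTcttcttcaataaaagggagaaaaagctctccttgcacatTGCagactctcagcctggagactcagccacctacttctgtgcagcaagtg
Trav14n-3: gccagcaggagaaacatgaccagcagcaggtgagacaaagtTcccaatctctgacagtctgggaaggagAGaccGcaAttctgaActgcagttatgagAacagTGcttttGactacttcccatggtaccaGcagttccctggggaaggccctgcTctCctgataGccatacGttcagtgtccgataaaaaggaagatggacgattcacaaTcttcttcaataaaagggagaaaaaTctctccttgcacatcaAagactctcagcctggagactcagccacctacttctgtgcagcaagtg
Trav14n-1: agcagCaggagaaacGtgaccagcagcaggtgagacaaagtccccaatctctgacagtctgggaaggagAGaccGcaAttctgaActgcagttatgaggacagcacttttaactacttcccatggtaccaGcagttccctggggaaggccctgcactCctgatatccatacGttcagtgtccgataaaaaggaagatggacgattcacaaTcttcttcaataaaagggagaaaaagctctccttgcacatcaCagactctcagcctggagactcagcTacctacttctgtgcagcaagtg

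Against the 312 bases of the Trav14-1 exon, 20 bases differed in Trav14-2, 20 in Trav14-3, 20 in Trav14d-3-dv8, 19 in Trav14n-3 and 13 in Trav14n-1, so identity to Trav14-1 ran from 92.63% to 95.83%. The V exons of Trav14n-1 and its d copy Trav14d-1 were identical over 312 bases. A second set of exons is shown because the n copies below took most of their reads from 1 library, with capitals at bases that differ from the unlettered partner printed above each. They lie at chr14:53710128-53710419 (Trav6-7-dv9), chr14:53318993-53319284 (Trav6n-7), chr14:53683899-53684177 (Trav4-4-dv10) and chr14:53302281-53302559 (Trav4n-4).
Trav6-7-dv9: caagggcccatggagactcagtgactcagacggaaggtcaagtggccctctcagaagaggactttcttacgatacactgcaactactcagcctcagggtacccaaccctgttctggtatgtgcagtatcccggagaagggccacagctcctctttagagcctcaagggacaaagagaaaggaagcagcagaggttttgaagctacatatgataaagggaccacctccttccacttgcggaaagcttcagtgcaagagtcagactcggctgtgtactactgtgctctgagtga
Trav6n-7: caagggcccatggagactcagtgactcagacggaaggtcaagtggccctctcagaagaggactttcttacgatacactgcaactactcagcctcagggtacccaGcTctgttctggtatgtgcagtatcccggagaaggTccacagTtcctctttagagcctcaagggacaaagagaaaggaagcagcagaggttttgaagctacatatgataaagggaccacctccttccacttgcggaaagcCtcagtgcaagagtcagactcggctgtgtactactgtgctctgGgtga
Trav4-4-dv10: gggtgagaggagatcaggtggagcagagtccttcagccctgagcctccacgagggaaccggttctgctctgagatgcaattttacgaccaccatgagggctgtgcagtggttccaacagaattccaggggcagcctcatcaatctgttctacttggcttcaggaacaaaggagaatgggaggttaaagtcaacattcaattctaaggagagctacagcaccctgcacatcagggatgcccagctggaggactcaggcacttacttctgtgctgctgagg
Trav4n-4: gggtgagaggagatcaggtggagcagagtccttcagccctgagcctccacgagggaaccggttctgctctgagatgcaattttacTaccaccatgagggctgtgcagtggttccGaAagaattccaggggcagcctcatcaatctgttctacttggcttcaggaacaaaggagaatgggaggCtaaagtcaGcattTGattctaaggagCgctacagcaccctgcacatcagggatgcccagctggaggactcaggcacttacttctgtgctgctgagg

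Trav6n-7 differed from Trav6-7-dv9 at 6 of 292 bases, and Trav4n-4 from Trav4-4-dv10 at 8 of 279. Each n copy had the same V exon as a d copy, Trav6d-7 and Trav4d-4 respectively. The last exon shown is that of Trav11 at chr14:53519569-53519859, the V segment of the invariant alpha chain of natural killer T (NKT) cells. The 290 bases of the Trav11d exon, at chr14:52824623-52824912, matched it at every base.
Trav11: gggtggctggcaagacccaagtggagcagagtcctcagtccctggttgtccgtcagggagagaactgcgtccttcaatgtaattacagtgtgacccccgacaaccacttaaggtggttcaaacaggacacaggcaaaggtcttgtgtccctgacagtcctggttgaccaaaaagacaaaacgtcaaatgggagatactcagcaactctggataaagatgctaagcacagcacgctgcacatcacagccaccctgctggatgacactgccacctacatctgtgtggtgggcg

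The libraries held between 18127031 and 25683453 counts over all genes. Cd4 reached 821.8 ± 51.8 CPM in the controls and 837.8 ± 87.3 CPM in the Ogt-KD libraries (SD, n = 3 each; CPM, counts per 1000000 after TMM scaling), so the defining marker of the labelled cells was present throughout. The CD8 markers Cd8a and Cd8b1 summed to 15.2 ± 1.66 against 14.9 ± 2.14 CPM, and of the 4 thymocyte markers Rag1, Rag2 and Ptcra had at most 5 counts in any library, while Dntt, the polymerase that adds bases at V(D)J joins, was detected in all 6 with 75 to 155 counts. Other cells were present at levels that varied between libraries: the 6 dendritic cell and macrophage markers summed to between 432.3 and 2052 CPM, highest in control 3 and Ogt-KD 3 through Vcam1 and Csf1r, and the 6 erythroid markers to between 15.8 and 187.8 CPM, highest in Ogt-KD 3. The dendritic cell genes Itgax, Flt3 and Zbtb46 were instead lowest in replicate 3 of each group, with log2 fold changes of 1.27, 1.12 and 1.43 in Ogt-KD, overlapping libraries and no call by edgeR. The 5 B cell markers summed to between 67.6 and 109.5 CPM and the 4 neutrophil markers to between 65.2 and 191.9 CPM. Both sums overlapped between the groups. All 5 and all 4 genes had log2 fold changes above 0, and none was called. The part of all these other cells in the results on V segments was not tested. In the make-up of its Trav counts Ogt-KD 3 also stood apart. Between 18.2% and 21.6% of its Trav counts would have to move to other rows to match another library, against 10.7% to 14.7% for every pair of libraries without it. Results that rest on this library are therefore given with and without it.

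Per raw library total, the alpha chain V segments as a whole lay within overlapping ranges in both groups. The control libraries held 4514, 4716 and 3397 Trav counts, and the Ogt-KD libraries 3700, 3165 and 4659, in the order of their replicate numbers. Per 1000000 raw counts of all genes, without TMM scaling, this was 198.3, 189.3 and 187.4 in the controls. In Ogt-KD it was 189.1, 166.8 and 181.4, so on this base the groups overlapped. The difference of -12.5 (191.6 ± 5.81 against 179.1 ± 11.3, SD, n = 3) had an exact two-sided permutation p of 0.2, where 3 against 3 cannot go below 0.1. The TMM factors behind CPM were 0.963, 0.998 and 0.981 in the controls and 1.045, 1.041 and 0.976 in Ogt-KD. The overlap of these totals therefore cannot be set beside levels in CPM. In bulk libraries fewer T cells and less receptor RNA per cell cannot be told apart.

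The same held against the constant region, which every alpha chain transcript shares. There were 41.8 ± 0.300 Trav counts per 100 Trac counts in the controls and 42.2 ± 2.67 in Ogt-KD, with an exact permutation p of 1. Trac itself measured 490.0, 454.9 and 461.3 CPM in the controls and 437.0, 401.1 and 412.1 CPM in Ogt-KD. On this TMM-scaled base every Ogt-KD value lay below every control value. The Trav total above was not scaled in this way, so the ranges are on unlike bases. The log2 fold change of Trac was -0.17 (SE 0.09). Its adjusted p was 0.741 in edgeR's quasi-likelihood test with Benjamini-Hochberg adjustment over all genes, so it was not called. Traj counts per 100 Trac counts were more scattered, from 24.97 to 31.7 in the controls and from 19.5 in Ogt-KD 3 to 42.6 in Ogt-KD 2.

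Use of the V segments was broad. Of the 128 rows, 111 had at least 1 count and 17 had none in any library, and 63 passed the filter on low counts that precedes the test. The 19 segments with a mean share of at least 2% of all Trav counts held 56.8% of them. The segments nearest to that bound were Trav16n at 2.14% and Trav9-4 at 2.003% inside it, and Trav21-dv12 at 1.78% and Trav12-3 at 1.74% outside it. The effective number of segments, the exponential of the Shannon entropy of the shares, was 54.2 ± 0.374 in the controls and 55.1 ± 2.44 in Ogt-KD (SD, n = 3, exact permutation p = 0.8). Over families the same measure gave 12.8 ± 0.165 and 13.3 ± 0.527 (exact permutation p = 0.4), so evenness of use did not differ beyond the spread of the Ogt-KD libraries.

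Trav3-3 took the largest share of Trav counts, with 4.56%, 3.27% and 4.24% in controls 1 to 3 and 4.22%, 4.23% and 5.62% in Ogt-KD 1 to 3. It was followed by Trav14d-3-dv8 (mean share 4.06%), Trav9-1 (3.72%), Trav14-2 (3.71%), Trav7-4 (3.70%), Trav14n-3 (3.66%), Trav13-1 (3.50%), Trav4-4-dv10 (3.26%) and Trav14-1 (3.05%). Neighbours in this order differed by less than their spread between libraries. When each count was divided by the row's length and the shares were formed again, Trav13-1 came first at 4.10%, then Trav3-3 at 4.03% and Trav14n-3 at 3.93%. The other 10 segments above the bound had mean count shares from 2.003% to 2.75% and were, in falling order, Trav9-2, Trav8-1, Trav14-3, Trav12-2, Trav10, Trav4-3, Trav5-4, Trav7-5, Trav16n and Trav9-4. Of the 19, 5 belonged to the Trav14 family and 3 to Trav9, and Trav14n-3, Trav14d-3-dv8 and Trav16n were the lettered copies among them. Pseudogene rows held 1.67% of the counts on average.

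**Figure D1:**
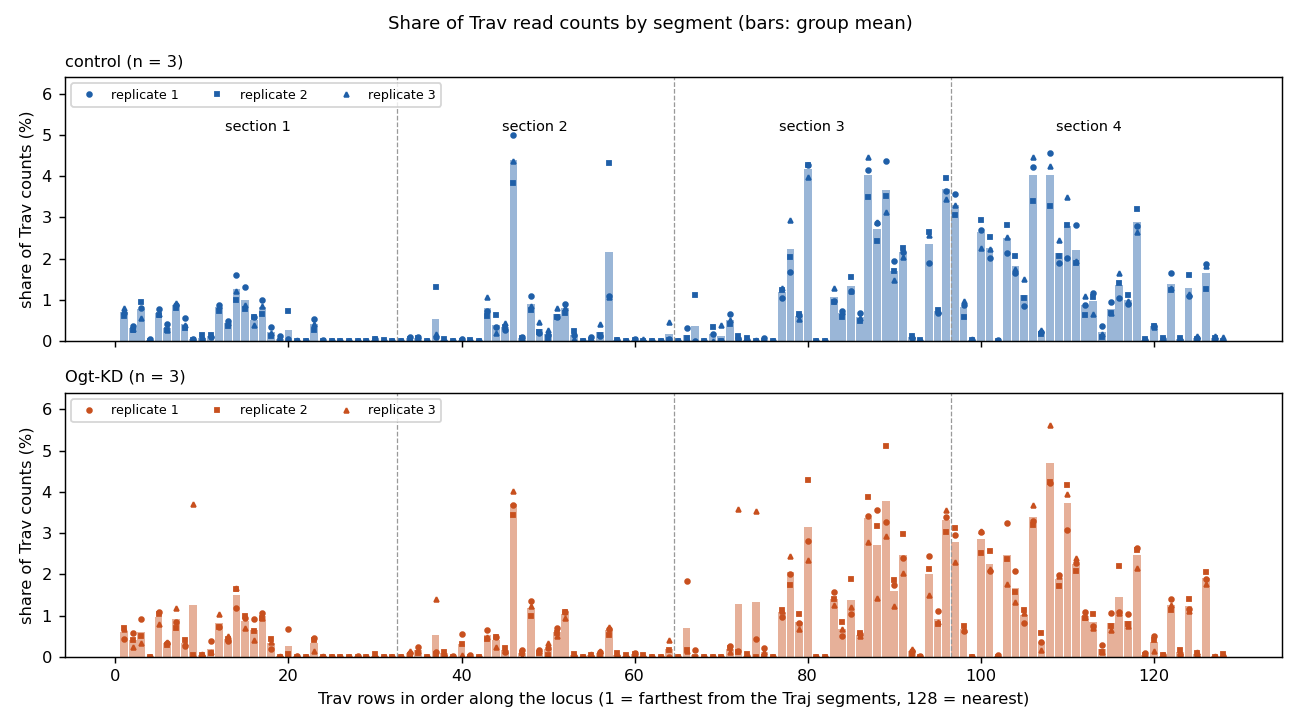
Share of all Trav counts (%, vertical axis) for each of the 128 Trav rows in order along the locus (horizontal axis), with control libraries above and Ogt-KD libraries below. Bars are group means, symbols are single libraries and dashed lines separate 4 sections of 32 rows; most counts fell in sections 3 and 4, nearest to Traj, and single symbols far above their bar mark rows high in 1 library.

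More counts fell in rows towards the J cluster. The rows were cut into 4 sets of 32 in order of their start, section 1 being farthest from Traj. Section 1 (positions 52427928 to 52928601) held 11.04% of the counts on average over the 6 libraries and section 2 (52929789 to 53232102) held 11.3%. Section 3 (53239284 to 53545525) held 34.8% and section 4 (53554022 to 53977678) held 42.8%. Over the 128 rows Spearman's rho of mean share and start was 0.345, and over the 72 V gene rows with some unique sequence it was 0.425. These are descriptions, since the rows share libraries and neighbouring copies share sequence.

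The section next to the one nearest Traj was the most even between mice. Section 3 held 34.3%, 34.8% and 34.4% in the controls and 34.8%, 36.5% and 34.1% in Ogt-KD, a coefficient of variation of 2.49%. Its summed count varied as little as counting alone would give, with a chi-square of 0.741 per degree of freedom. This did not hold for single rows in it: Trav6n-7 and Trav4n-4 had values of 120.5 and 117.8. Section 4 was nearly as even in sum, with a coefficient of variation of 3.03% and a chi-square of 1.58 per degree of freedom. Sections 1 and 2 had coefficients of variation of 14.4% and 14.3% and chi-square values of 9.86 and 9.22 per degree of freedom. Sections 3 and 4 together held 77.4 ± 1.19% in the controls and 77.8 ± 2.64% in Ogt-KD (SD, n = 3, exact permutation p = 0.9).

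Section 2 was the only 1 of the 4 sets in which the groups did not overlap. It held 11.3%, 14.1% and 11.8% of the counts in the controls and 10.6%, 9.10% and 11.2% in Ogt-KD. The exact permutation p was 0.1, the smallest this design can give, and 4 sets were compared. In section 2 lies Trav14n-1, whose 204 counts in control 2 made up 4.33% of that library's Trav counts. Without Trav14n-1 the groups overlapped, with 10.2%, 9.73% and 10.7% in the controls and 9.92%, 8.56% and 10.5% in Ogt-KD.

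Among families, Trav14 was the most used. Its 9 rows held 18.7% of Trav counts on average, followed by Trav7 with 13.0% in 13 rows, Trav9 with 9.92% in 11, Trav6 with 7.94% in 15, Trav4 with 7.53% in 9 and Trav13 with 7.50% in 12. The middle range was taken by Trav8 (6.24%), Trav3 (6.00%), Trav12 (5.55%), Trav16 (3.94%), Trav5 (3.28%) and Trav10 (3.21%). Below 2% were Trav21 (1.78%), Trav17 (1.33%), Trav15 (1.27%), Trav19 (1.25%), Trav1 (0.648%), Trav11 (0.369%), Trav2 (0.356%), Trav18 (0.0760%), Trav20 (0.0715%), Trav22 (0.0412%) and Trav23 (0.0298%). Trav18 to Trav23 have 1 row each and lie nearest to Traj. Of these, the V genes Trav18 and Trav23 had 18 and 6 counts over all 6 libraries. The pseudogene rows Trav20 and Trav22 had 17 and 10, while Trav19 had 303 and Trav21 had 423. A position close to the J cluster thus did not go with high use in every case, also among V genes.

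**Figure D2:**
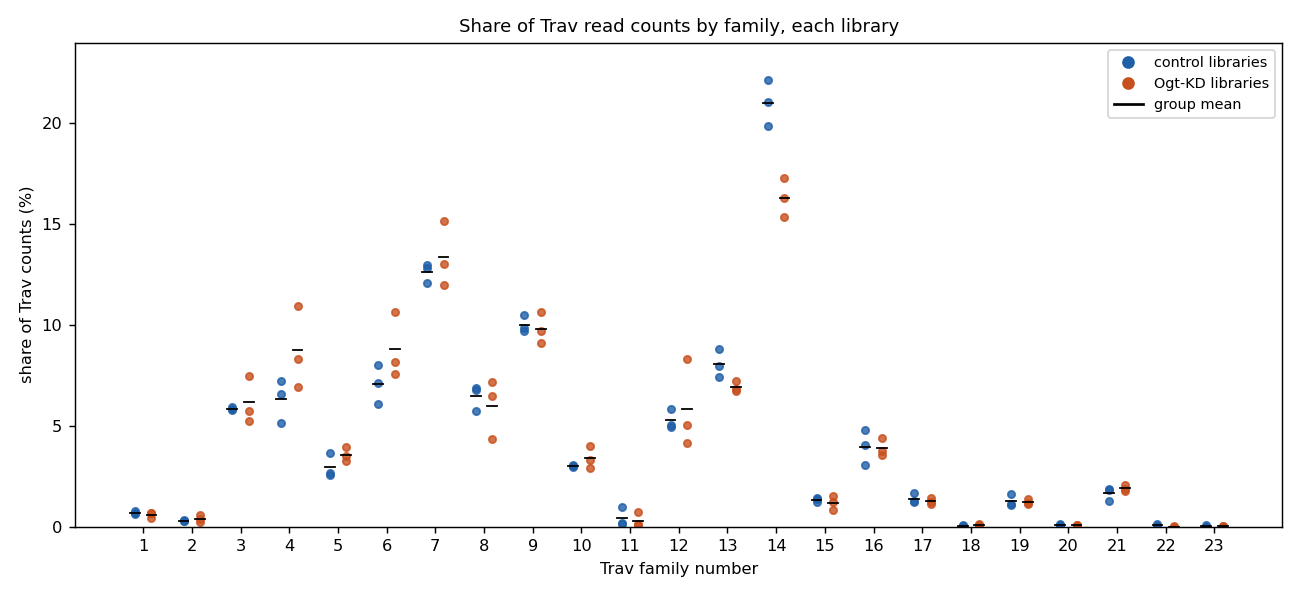
Share of all Trav counts (%, vertical axis) in each of the 23 Trav families (horizontal axis), with 1 point per library, control in blue and Ogt-KD in orange, and a black line at each group mean. The Trav14 points of the Ogt-KD libraries lie between 15.4% and 17.3%, below the control points at 19.9% to 22.1%.

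The Trav14 family took a smaller share of the alpha chain V counts in every Ogt-KD library than in any control library. Its share was 21.1%, 22.1% and 19.9% in the controls and 16.3%, 17.3% and 15.4% in Ogt-KD. The difference of Ogt-KD from control was -4.71 percentage points (21.03 ± 1.13% against 16.3 ± 0.957%, SD, n = 3), with an exact permutation p of 0.1, the smallest possible. As a level the family stood at 43.4, 42.0 and 38.0 CPM in the controls and at 29.5, 27.7 and 28.6 CPM in Ogt-KD. With Trav rows summed by family in a fit of all 16030 genes, the log2 fold change was -0.52 (SE 0.09, 95% interval -0.75 to -0.30), and the adjusted p was 0.468 in edgeR's quasi-likelihood test with Benjamini-Hochberg adjustment. The difference therefore did not pass the threshold of 0.05, although the unadjusted p was 0.00081. DESeq2 on the same table gave a log2 fold change of -0.53 with an adjusted p of 0.0250, where 0.395% of all rows were called, so the call depended on the tool. Without Ogt-KD 3 the log2 fold change was -0.53 with an adjusted p of 0.111 in the edgeR test.

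The 6 most counted members of the family make up most of its sum, so their direction is not separate support for it. All 6 Trav14 segments that were tested had log2 fold changes below 0, where 46 of all 63 tested segments did. They ran from -0.39 for Trav14-3 to -1.86 for Trav14n-1, and none passed the test. Trav14n-3 measured 8.81, 8.09 and 7.60 CPM in the controls and 5.09, 6.89 and 4.36 CPM in Ogt-KD (log2 fold change -0.59, SE 0.21, adjusted p = 0.624 in edgeR's test). Trav14-1 measured 7.35, 5.80 and 6.31 CPM against 5.34, 5.02 and 4.28 CPM, and Trav14-3 measured 5.75, 6.08 and 5.07 CPM against 4.80, 4.16 and 3.996 CPM. By CPM no Ogt-KD library reached a control library in these 3 segments, where 5.88% of all genes were lower in this way. As shares of Trav counts, only Trav14-3 of the 3 kept this. Trav14n-3 held 4.30% in Ogt-KD 2, against 4.28%, 4.26% and 3.97% in the controls. Trav14-1 held 3.13% in Ogt-KD 2, against 3.05% in control 2.

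Trav14-2 and Trav14d-3-dv8 overlapped between the groups, at 6.44 to 8.68 CPM against 5.12 to 6.87 CPM and at 7.29 to 10.3 CPM against 5.53 to 7.47 CPM. Trav14n-1 was uneven among the controls, with 49, 204 and 36 counts, and had 25, 17 and 34 counts in Ogt-KD. With the rows dominated by 1 library left out, Trav14n-1 among them, the family's log2 fold change was -0.43 with an adjusted p of 0.521 in the edgeR test. Trav14d-2 had 28 counts in all, Trav14d-1 had 2 and Trav14n-2 had none. The mean share of Trav14d-2 was higher in Ogt-KD, at 0.156% against 0.0778% in the controls.

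**Figure D3:**
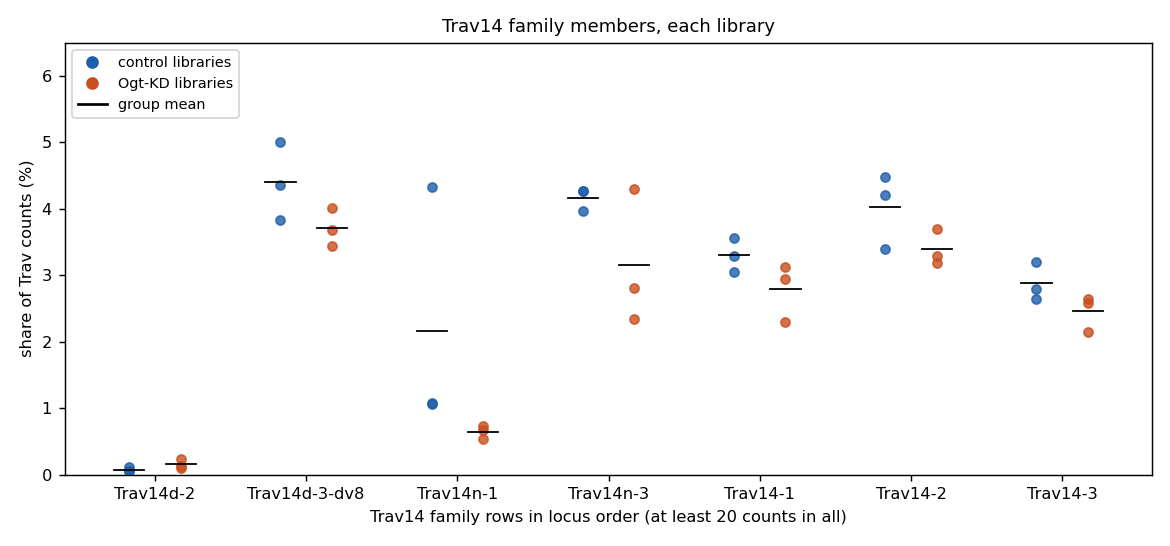
Share of all Trav counts (%, vertical axis) for the 7 Trav14 rows with at least 20 counts in all (horizontal axis, locus order), with 1 point per library and a black line at each group mean. The Ogt-KD mean lies below the control mean in every row but Trav14d-2, and the spread of the Trav14n-1 controls comes from control 2 at 4.33%.

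The other families tested showed smaller differences. Of the 18 families tested, 6 had log2 fold changes above 0 and 12 below, with a median of -0.12, against -0.0049 over all genes. None passed an adjusted p of 0.05, where 0.00624% of all rows did. With an unadjusted p under 0.05 there were 2 families, both lower, where 2.48% of all rows were lower at that bound. Besides Trav14 this was Trav13, with a share of 7.42%, 8.82% and 7.95% in the controls and 7.24%, 6.82% and 6.74% in Ogt-KD. The Trav13 shares did not overlap, and the log2 fold change was -0.37 (SE 0.13, adjusted p = 0.611 in edgeR's test).

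Trav9 had non-overlapping levels of 18.6 to 21.6 CPM against 16.9 to 17.6 CPM, but its shares overlapped (10.01 ± 0.410% against 9.83 ± 0.778%). Trav22 was lower as a share in every Ogt-KD library, on 10 counts in all. Trav4 had the highest positive log2 fold change of a family, 0.33 (SE 0.22, adjusted p = 0.826 in edgeR's test), with shares of 5.14%, 6.57% and 7.24% in the controls and 6.95%, 8.31% and 10.97% in Ogt-KD. In Ogt-KD 3 the Trav4 share included 167 counts of Trav4n-4. Without that library the Trav4 log2 fold change was 0.07, and without the rows dominated by 1 library it was 0.11. Shares of 23 families were compared between the groups, and Trav13, Trav14 and Trav22 were the 3 in which they did not overlap. By level, 5.88% of all genes were lower and 7.43% higher in every Ogt-KD library. With 23 families, a count of 3 is too small to be set apart from that background.

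At the level of single segments, none of the 63 tested differed between the groups by the edgeR test at an adjusted p of 0.05, where 0.00622% of all genes passed. DESeq2 called 0 of 109 segments, where it called 0.39% of all genes. An unadjusted p under 0.05 was reached by 4 segments in edgeR, all lower in Ogt-KD, and by 8 in DESeq2, 6 of them lower. Over all genes 2.48% were lower and 5.04% higher at that bound in edgeR, and 1.36% were lower in DESeq2. Of the 63 segments 46 had log2 fold changes below 0 (73.0%), where 51% of all genes did, and the median was -0.18 where that of all genes was -0.0048. The range ran from -1.86 to 0.53. The 63 are the rows with enough counts and not all 128.

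Levels of 10 segments (15.9% of the 63) were lower in every Ogt-KD library than in any control library, where 5.88% of all genes were, and 0 segments were higher in this way, where 7.43% of all genes were. The 10 were Trav7-4, Trav14n-3, Trav14-1, Trav14-3, Trav4-3, Trav9-4, Trav14n-1, Trav8n-2, Trav9n-4 and Trav13d-4. Their counting base was the TMM-scaled library size, as for the other genes. Trac also lay lower in every Ogt-KD library on that base. The Trav total was compared only per raw library total, where the groups overlapped. As shares of Trav counts, which do not depend on that base, 4 of the 128 rows were higher in every Ogt-KD library (Trav5-1, Trav6n-6, Trav13n-4 and Trav12-1). Another 7 of the 128 were lower (Trav13d-4, Trav9n-1, Trav14n-1, Trav9n-4, Trav3-2, Trav14-3 and Trav22). Among the lower rows Trav3-2 had 4 counts in all and Trav22 had 10. The only background is that of levels over the 16075 genes that passed the filter, 7.43% higher and 5.88% lower. Of the 128 rows only 63 passed it, and 17 had no count and could not differ. The counts of shares therefore cannot be set against that background.

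The segment with the smallest p was Trav9n-4, at 1.37, 0.765 and 0.958 CPM in the controls and 0.490, 0.355 and 0.200 CPM in Ogt-KD. Its groups did not overlap, and the log2 fold change was -1.57 (SE 0.44, adjusted p = 0.536 in edgeR's test). Trav13d-4 measured 0.548, 0.644 and 0.845 CPM against 0.196, 0.355 and 0.240 CPM, again without overlap (log2 fold change -1.35, SE 0.40, adjusted p = 0.556 in edgeR's test). Trav7-4, one of the most used segments, measured 8.54, 6.65 and 8.56 CPM against 6.17, 6.24 and 5.20 CPM (log2 fold change -0.43, SE 0.19, adjusted p = 0.667 in edgeR's test). Trav8d-2 had a log2 fold change of -0.75 (SE 0.34) with overlapping libraries. These are low-count genes apart from Trav7-4, and none passed the test.

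In the other direction the smallest p values belonged to Trav5-1 with a log2 fold change of 0.33 (SE 0.26), Trav4-4-dv10 with 0.28 (SE 0.23), Trav15-2-dv6-2 with 0.53 (SE 0.48), Trav13n-4 with 0.28 (SE 0.27), Trav4-2 with 0.23 (SE 0.24) and Trav6n-6 with 0.22 (SE 0.25). Their adjusted p values in edgeR's test ran from 0.874 to 0.944. Trav5-1 held 0.775%, 0.636% and 0.648% of Trav counts in the controls and 1.08%, 1.04% and 0.794% in Ogt-KD, with no overlap. Trav4-4-dv10 held 2.02%, 2.82% and 3.50% against 3.08%, 4.17% and 3.95%, with overlap. Among 107 Trav rows of the authors' deposited table, 0 had an adjusted p under 0.05, where 0.417% of all rows did. The lowest adjusted p there, 0.0981, belonged to Trav14n-1.

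Lettered copies and delta-shared segments made up overlapping shares in both groups. Rows with the letter d or n held 27.3%, 30.0% and 27.2% of Trav counts in the controls and 27.3%, 24.4% and 35.0% in Ogt-KD. The means of 28.2 ± 1.57% and 28.9 ± 5.50% (SD, n = 3) had an exact permutation p of 0.9, and the mean difference turned from 0.723 to -2.34 percentage points without Ogt-KD 3. The 10 segments also named as delta V segments held 12.1 ± 1.05% and 12.6 ± 0.511% (exact permutation p = 0.4).

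How much of a row's sequence recurs in another gene went with how many reads it was given. For each row the annotated transcript was cut into all windows of 50 bases, and 40 rows had every window also present in another gene. Of these 37 were among the 73 lettered copies and 3 among the 55 others. Their median count over the 6 libraries was 5, against 175 for the other 88 rows, and 11 of the 40 had no count where 6 of the 88 had none. The filter on low counts passed 1 of the 40 and 62 of the 88. Spearman's rho of mean share and percent of windows shared was -0.487 over 128 rows, a description of rows that share libraries. Of 2 rows with the same V exon, the counts often stood in 1: Trav12n-3 had 98 counts where its twin Trav12d-3 had none, and together Trav14d-1 and Trav14n-1 had 367 counts, 0.545% of them in the lower row. How reads that match several genes were assigned is not given in the sources used here.

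**Figure D4:**
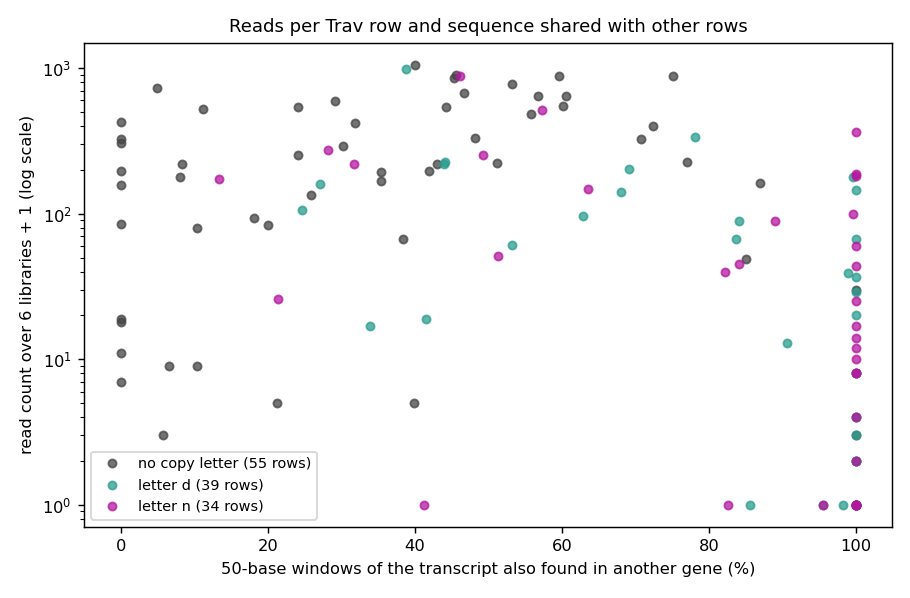
Read count over the 6 libraries plus 1 (vertical axis, log scale) against the percent of 50-base windows also found in another gene (horizontal axis), with 1 point per Trav row, coloured by copy letter. The 40 rows at 100% have a median count of 5, against 175 for the other 88 rows.

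Rows with wholly shared sequence also varied more between mice. Among rows with at least 20 counts, the chi-square per degree of freedom against the libraries' Trav totals, which is near 1 for counting noise alone, had a median of 17.4 over 11 such rows and 2.12 over the 70 others. In 7 of those 11 rows, and in 2 of the other 70, at least 50% of all counts came from 1 library. These 2, Trav7d-2 and Trav12n-3, had 99.65% and 99.67% of their windows in common with another gene. The 9 rows summed to 1.75%, 6.72% and 1.41% of Trav counts in controls 1 to 3 and to 4.46%, 1.23% and 11.8% in Ogt-KD 1 to 3. Control 2 and Ogt-KD 3 were the highest of their groups.

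In Ogt-KD 3, 3 of the 9 rows each reached the level of the most used segments. Trav7d-2 had 2, 1 and 2 counts in the controls and 0, 1 and 173 in Ogt-KD, so that 3.71% of the Ogt-KD 3 Trav counts (exact 95% interval 3.19% to 4.30%, counting error only) stood in a row at or below 0.0589% in the others. Trav6n-7 had 0, 0 and 1 counts against 16, 0 and 165, and Trav4n-4 had 2, 6 and 3 against 5, 4 and 167. The unlettered partners of those last rows had their highest counts in the same library but not their highest shares. Trav6-7-dv9 had 45 counts in Ogt-KD 3 and 30 to 40 in the others, and its share there of 0.966% lay within their range of 0.636% to 1.09%. Trav4-4-dv10 had 184 counts against 91 to 133, and its share of 3.95% lay within their range of 2.02% to 4.17%. The row highest in control 2 was Trav14n-1, with 204 counts against 17 to 49 elsewhere.

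Of the other 5 rows, which were smaller, Trav13n-2 had 53 of its 59 counts in control 2, Trav12n-3 had 68 of 98 in Ogt-KD 1, and Trav5d-4 had 20 of 36 in Ogt-KD 1. Trav15n-2 had 8 and 16 counts in controls 1 and 2 and none elsewhere. Outside the 9, Trav3d-3 was high in a library of each group, neither holding 50% of its counts, with 62 counts in control 2 and 65 in Ogt-KD 3 against 2 to 6 in the others. Libraries of both groups thus held such rows. Summed over copies with identical V exons the pattern stayed, with 165 of 185 counts of the Trav6d-7 and Trav6n-7 pair and 167 of 188 counts of the Trav4d-4 and Trav4n-4 pair in Ogt-KD 3. What set these rows apart in single libraries was not tested.

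**Figure D5:**
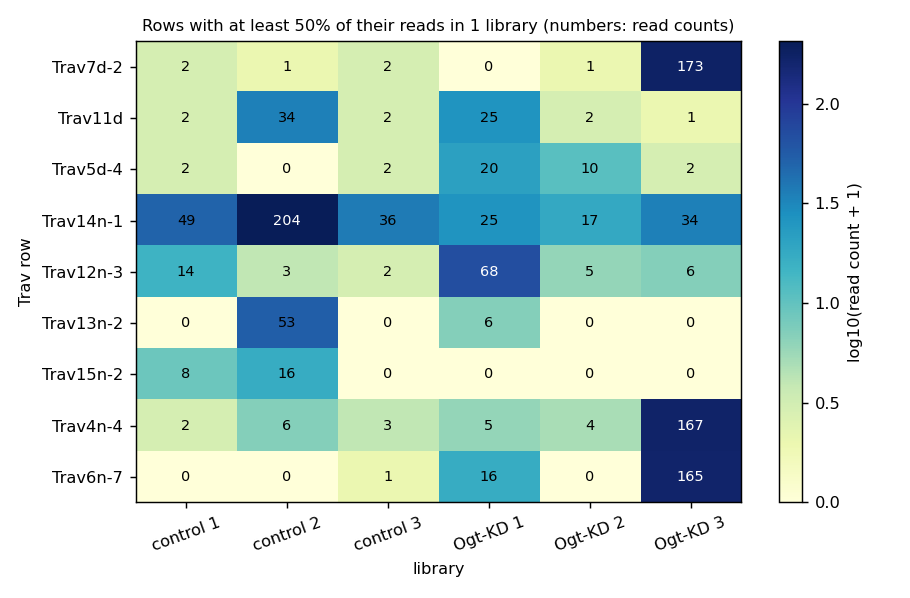
Read counts (printed in each cell, colour on a log10 scale) of the 9 Trav rows with at least 50% of their counts in 1 library, by library (columns, control 1 to 3 and Ogt-KD 1 to 3). Trav7d-2, Trav4n-4 and Trav6n-7 have 173, 167 and 165 counts in Ogt-KD 3, and Trav14n-1 has 204 in control 2.

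The last of the 9 rows, Trav11d, bears on NKT cells, whose invariant alpha chain joins a Trav11 segment to Traj18. Trav11d had 2, 34 and 2 counts in the controls and 25, 2 and 1 in Ogt-KD, and Trav11, with the same exon sequence, had 1 count in control 2, 1 in Ogt-KD 1 and none elsewhere. High values thus stood in 1 library of each group. Traj18 did not follow them, with 4.70, 3.50 and 2.76 CPM in the controls and 4.11, 4.56 and 1.64 CPM in Ogt-KD. Zbtb16, the transcription factor that directs NKT cell development, measured 0.731, 1.37 and 0.845 CPM in the controls and 2.30, 2.13 and 3.32 CPM in Ogt-KD, without overlap (log2 fold change 1.38, SE 0.34, adjusted p = 0.517 in edgeR's test). Of the 5 NKT markers listed 4 were tested, all above 0 and none called, and Klra1 had 0 or 1 count in every library. Klrb1c, Klrk1 and Tbx21 overlapped between the groups. The 5 together summed to 32.6 ± 2.72 CPM in the controls and 48.8 ± 6.27 CPM in Ogt-KD without overlap, and most of that difference was Tbx21, also the lineage factor of Th1 cells, at 20.2, 19.0 and 12.1 CPM against 37.8, 36.4 and 15.5 CPM. Trav1, the V segment of mucosal-associated invariant T cells, held 0.699 ± 0.0906% of Trav counts in the controls and 0.598 ± 0.144% in Ogt-KD (exact permutation p = 0.5).

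No gene of the rest of the receptor machinery that was listed passed the same test. Of 60 Traj rows 45 were tested, 23 above and 22 below 0 with a median log2 fold change of 0.0011, and none was called. The delta locus, which lies among the alpha V and J segments, had 3 of 11 rows tested, all below 0. Trdc, its constant region, measured 4.33 ± 0.899 CPM against 2.86 ± 0.767 CPM (log2 fold change -0.59, SE 0.28, adjusted p = 0.681 in edgeR's test). The gamma chain constants Tcrg-C1, Tcrg-C2 and Tcrg-C4 had log2 fold changes of 0.69, 1.28 and 0.77, with adjusted p values of 0.526 to 0.624 in edgeR's test. Each was higher without overlap, where 7.43% of all genes were. All 4 CD3 complex genes were tested, 1 above and 3 below 0, with a median of -0.10, and Cd247, the zeta chain that carries most signalling motifs of the complex, was at -0.22 (SE 0.10). Trbc1 and Trbc2, the beta chain constants, were at -0.16 and -0.10. Among 5 proximal signalling genes 2 were above and 3 below 0, with a median of -0.18. The kinase Lck (-0.27, SE 0.12) and the adaptor Lat (-0.18, SE 0.11) had levels without overlap, lower in Ogt-KD, where 5.88% of all genes were. The co-receptor genes Cd4, Cd8a and Cd8b1 had 2 log2 fold changes above and 1 below 0.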

How the data were processed

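RNA from splenic CD4+ T cells of 3 control and 3 Ogt-KD mice was made into libraries with an Illumina TruSeq kit, per the labels' protocols. Per the submitters' processing notes, TopHat2 2.0.9, Bowtie2 2.0.6 and mm9 were used, but the deposited coordinates of 128 of 128 Trav rows equal those of GENCODE M21 on GRCm38, which was used here. For the counting tool, strand setting, handling of reads that match several genes and the authors' test, a description is not given in the sources used here. Integer read counts per gene were deposited by the authors and are the basis of every value. The deposited FPKM and the deposited normalised mean signal per group were not used. The deposited log2 fold change, p-value and adjusted p of the authors were printed only where they are named as theirs, and the deposited gene length in bases served to form shares per length.

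Genes passing filterByExpr were fitted with edgeR 4.0.16 (R 4.3.3; TMM scaling, quasi-likelihood F test, robust), with Benjamini-Hochberg adjustment over all genes tested and a threshold of 0.05, once with Trav rows single and once summed by family. The script was tested on simulated data. Shares and other single values were compared by exact two-sided permutation tests over the 6 libraries (scipy 1.17.1). Intervals on a share are exact Clopper-Pearson intervals at 95% and cover counting error only. Rows with at least 20 counts of which at least 50% came from 1 library were called dominated by 1 library. Exons were compared with pairwise alignment in Biopython 1.88. DESeq2 1.42.0, other scalings and filters, a replicate block and leaving out each library were alternatives.

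The segments named with values were those with a mean share of at least 2%, up to 6 in each direction by smallest p, the 4 most variable with a mean share of at least 0.5%, and Trav1, Trav11 and Trav11d. Others were named as members of a counted set after their values were seen. The members and lists were chosen with earlier results of these data known. Libraries with the same replicate number deviated together over all genes (correlations 0.109, 0.346 and 0.523), which met a rule of 0.1 in every pair for possible pairing. The main fits nevertheless use no pairs, and the replicate number was a block only in an alternative fit. This sign of pairing is weak and comes from the data, since the labels do not say what a number marks. Control 2 with Ogt-KD 1 gave 0.267, and over the 63 tested Trav rows alone the pairs gave 0.0273, -0.0688 and 0.188. The permutation tests exchange all 6 libraries and use no pairs. No other column of per-sample values was left unused, and the p-values measure the spread between 3 libraries per group.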

Additional observations from a re-analysis of the deposited data

How the results depend on the processing

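No Trav segment passed the threshold in any fit, and no family did except 1, Trav14, in DESeq2. With the replicate number as a block, 0 segments and 0 families were called where 47 of 16075 genes were, the Trav14 family had an adjusted p of 0.0786, and the block changed no call. Over the fits that left out 1 library the Trav14 family stayed between -0.60 and -0.49 on the log2 scale. Of 47 named log2 fold changes, 14 turned direction in some alternative, none of them called, and 3 did so with every library kept, the Trav10, Trav5 and Trav6 families. DESeq2 and the fit with no filter on low counts gave -0.0028 and -0.012 for the Trav10 family. Family sums without rows dominated by 1 library, and without rows whose windows are all shared, gave -0.0025 and -0.00099 for the Trav5 family and -0.079 and -0.078 for the Trav6 family. Both sets of rows, and the omission of Trav14n-1 from section 2, were chosen after seeing the data. The share of sections 3 and 4 differed by -1.11 percentage points over rows with some unique window and by -0.307 without rows dominated by 1 library, and the share of lettered copies by -1.15 without the latter. The causes of these turns were not tested.

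Leaving out 1 library at a time, the differences ranged from -0.893 to 1.74 points for sections 3 and 4, from -2.34 to 2.98 for lettered copies, from -0.0035 to 1.05 for delta-shared segments and from -0.419 to 1.93 for the effective number of segments. The log2 fold changes that turned ranged from -0.048 to 0.11 (Trav10), -0.053 to 0.061 (Trav10 family), -0.39 to 0.16 (Trav12 family), -0.15 to 0.47 (Trav2 family), -0.14 to 0.18 (Trav21 family), -0.28 to 0.092 (Trav3 family), -0.13 to 0.22 (Trav3-3), -0.0090 to 0.33 (Trav5 family), -0.26 to 0.13 (Trav5-4), -0.044 to 0.32 (Trav6 family), -0.22 to 0.014 (Trav7 family), -0.47 to 0.11 (Trav8-1), -0.35 to 0.041 (Trav9-1) and -0.16 to 0.11 (Trav9-2). Without replicate 3 of both groups the share of lettered copies differed by -2.83 points, and the log2 fold changes without and with the block were 0.14 and 0.14 for Trav8-1, -0.11 and -0.090 for Trav3-3, 0.12 and 0.060 for the Trav12 family and -0.057 and -0.044 for the Trav6 family. Between 3165 and 4716 Trav counts per library limit what can be seen: 3 counts, the limit that a count of 0 allows, are 0.0636% to 0.0948% of a library's Trav counts.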
